A study of Oryza sativa with 16 samples.

Results

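Rice seedlings given salicylic acid (SA) were compared directly with seedlings given jasmonic acid (JA). The comparison rests on 4 of the 16 arrays of the series, 2 labelled as SA treatment and 2 as JA treatment, chosen by their labels. All seedlings were Oryza sativa subspecies indica, variety IR64, grown in water culture to 7 days of age with 14 h of light and 10 h of darkness. Each hormone was given at 100 µM for 3 h, and the tissue is labelled as seedlings. The untreated arrays used for reference, called control2 in the labels, came from 2 samples kept in water for the same 3 h. The other 10 arrays (control1, IAA and BAP at 50 µM, ABA and ACC at 100 µM, 2 each) entered the test only through their spread within groups. The labels did not say that the 2 replicates of a group came from separate cultures, so p-values measure the spread between these samples, which may be technical. In RNA of seedlings, fewer cells of a type and less RNA per cell cannot be told apart.

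SA is a phenolic hormone best known in plants for resistance to pathogens that feed on living cells. Its signal passes through the NPR1 family of receptors and co-activators to TGA and WRKY transcription factors. JA is made from membrane lipids by lipoxygenase, allene oxide synthase, allene oxide cyclase and OPR reductases, joined to isoleucine by a GH3 enzyme, and bound by the receptor COI1. COI1 then has the JAZ repressors degraded, which frees transcription factors that switch on wound and defence genes, the JAZ genes among them. In rice, JA is also known to raise diterpenoid phytoalexins, the antimicrobial compounds of this grass. The study's own labels give no purpose beyond testing which genes respond to each hormone, and setting SA beside JA shows where the responses to these defence hormones part.

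Values are GCRMA log2 values, so a difference of 1 log2 unit is 2-fold, and differences are given as SA minus JA ± SE (n = 2 arrays each). This SE is the moderated one of the fit over all 16 arrays. It therefore holds the spread within the other groups too, and is not the scatter of the SA and JA replicates alone. A probe set was tested if it was above a log2 value of 5 on at least 2 of the 16 arrays, and called at an adjusted p under 0.05 in limma's moderated test. Array medians lay between 2.96 and 3.09 for the 4 arrays, and replicates correlated across probe sets at r = 0.989 for SA and 0.988 for JA. The poly-A spike-ins, which report on labelling, gave 5' minus 3' differences of -0.987 and -1.17 under SA and -0.954 and -1.15 under JA. In control2 they were -0.695 and -0.633, outside the range of the SA and JA arrays, and the part of this in comparisons with control2 was not tested. The hybridization spike-ins averaged 11.1 and 11.7 under SA and 12 and 12.1 under JA, and the actin 3' minus 5' difference was 1.48 and 1.59 under SA and 1.41 and 1.18 under JA. Both measures thus separated the hormones, and their part in the results was not tested. The GAPDH and cyclophilin measures overlapped. The 5 shoot markers tested, all of photosynthesis, averaged 13.79 and 14.05 under SA and 13.84 and 14.06 under JA, and 0 were called. The 27 root markers tested averaged 10.83 and 11.19 under SA and 11.13 and 11.01 under JA, with all 27 above 5 on each of the 4 arrays. Of these, 3 (11.1%) were called higher under SA and 4 (14.8%) higher under JA, against 7.5% and 8.69% of all named genes.

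Of 24100 probe sets tested, 2571 (10.7%) differed between the hormones. Of these, 1339 (5.56%) were higher under SA and 1232 (5.11%) higher under JA. The difference reached 1 log2 unit for 656 of the first and 538 of the second. The unadjusted p was under 0.05 for 5983 probe sets, and the SA and JA arrays did not overlap for 13135 (54.5%). Without SA replicate 1 the calls numbered 1151, and without JA replicate 2 they numbered 1069. Without SA replicate 2, the calls higher under JA numbered 740.

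**Figure D1:**
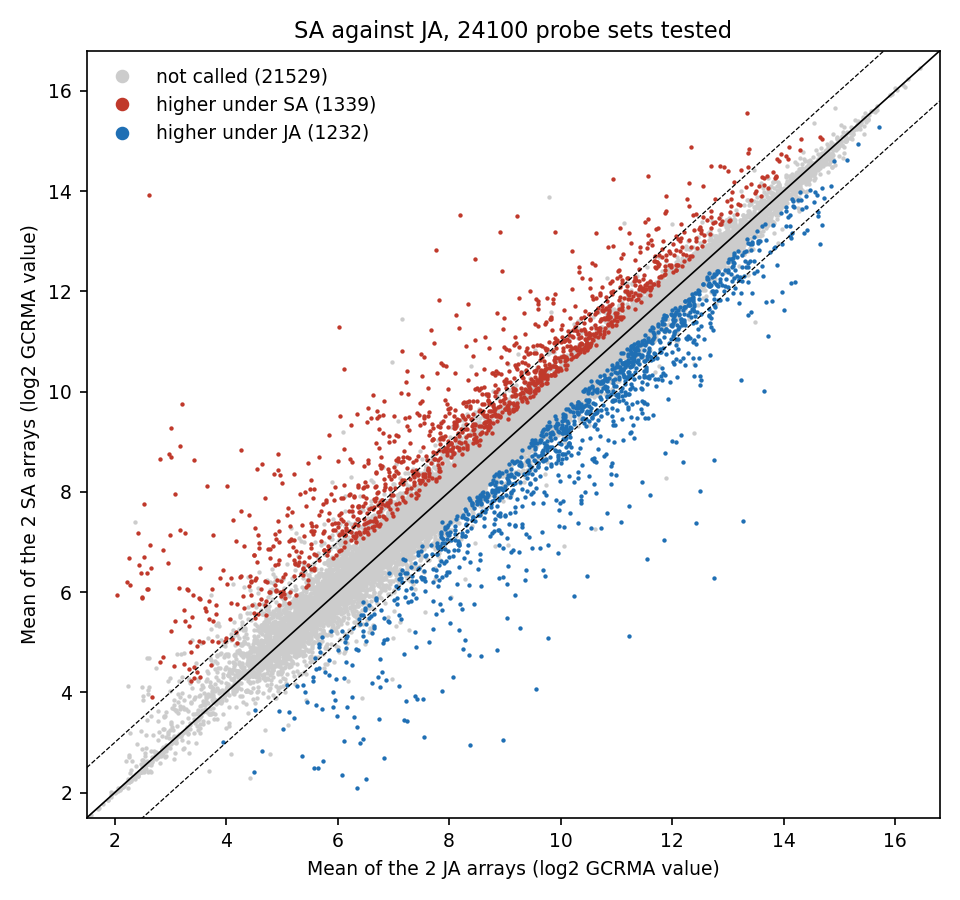
Each point is 1 of the 24100 probe sets tested, with the mean of the 2 JA arrays on the horizontal axis and the mean of the 2 SA arrays on the vertical axis, both as log2 GCRMA values. The solid line marks equal values and the dashed lines a difference of 1 log2 unit; 1339 red points were called higher under SA and 1232 blue points higher under JA.

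A probe set higher under SA can be one that SA raised or one that JA lowered, so each called probe set was placed against the mean of control2, without a test. Both hormones are set against the same 2 control2 arrays here. The control1 arrays were not used for this placement, and in some genes their mean differs from that of control2. Among the 656 higher under SA by at least 1 log2 unit, SA alone stood 1 log2 unit or more above control2 in 326 (49.7%), and JA alone stood that far below it in 89 (13.6%). The hormones lay on the same side of control2 in 53 of them and on opposite sides in 14, and neither was that far away in 174. Among the 538 higher under JA by that much, JA alone stood above control2 in 252 (46.8%) and SA alone below it in 74 (13.8%). Here 16 had both hormones on the same side, 30 had them on opposite sides, and 166 had neither that far away.

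Described by gene, with 1 probe set each, 966 of 14941 genes (6.47%) were higher under SA and 845 (5.66%) higher under JA, with a median difference of 0.03. Of the 2186 genes among them that carry a name, 164 (7.5%) and 190 (8.69%) were called. Among the 17396 probe sets tested that have 1 gene, 1064 (6.12%) were higher under SA and 944 (5.43%) higher under JA. These shares are the background for the gene lists that follow. The lists hold named genes alone, since only a name could place a gene in a list.

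**Figure D2:**
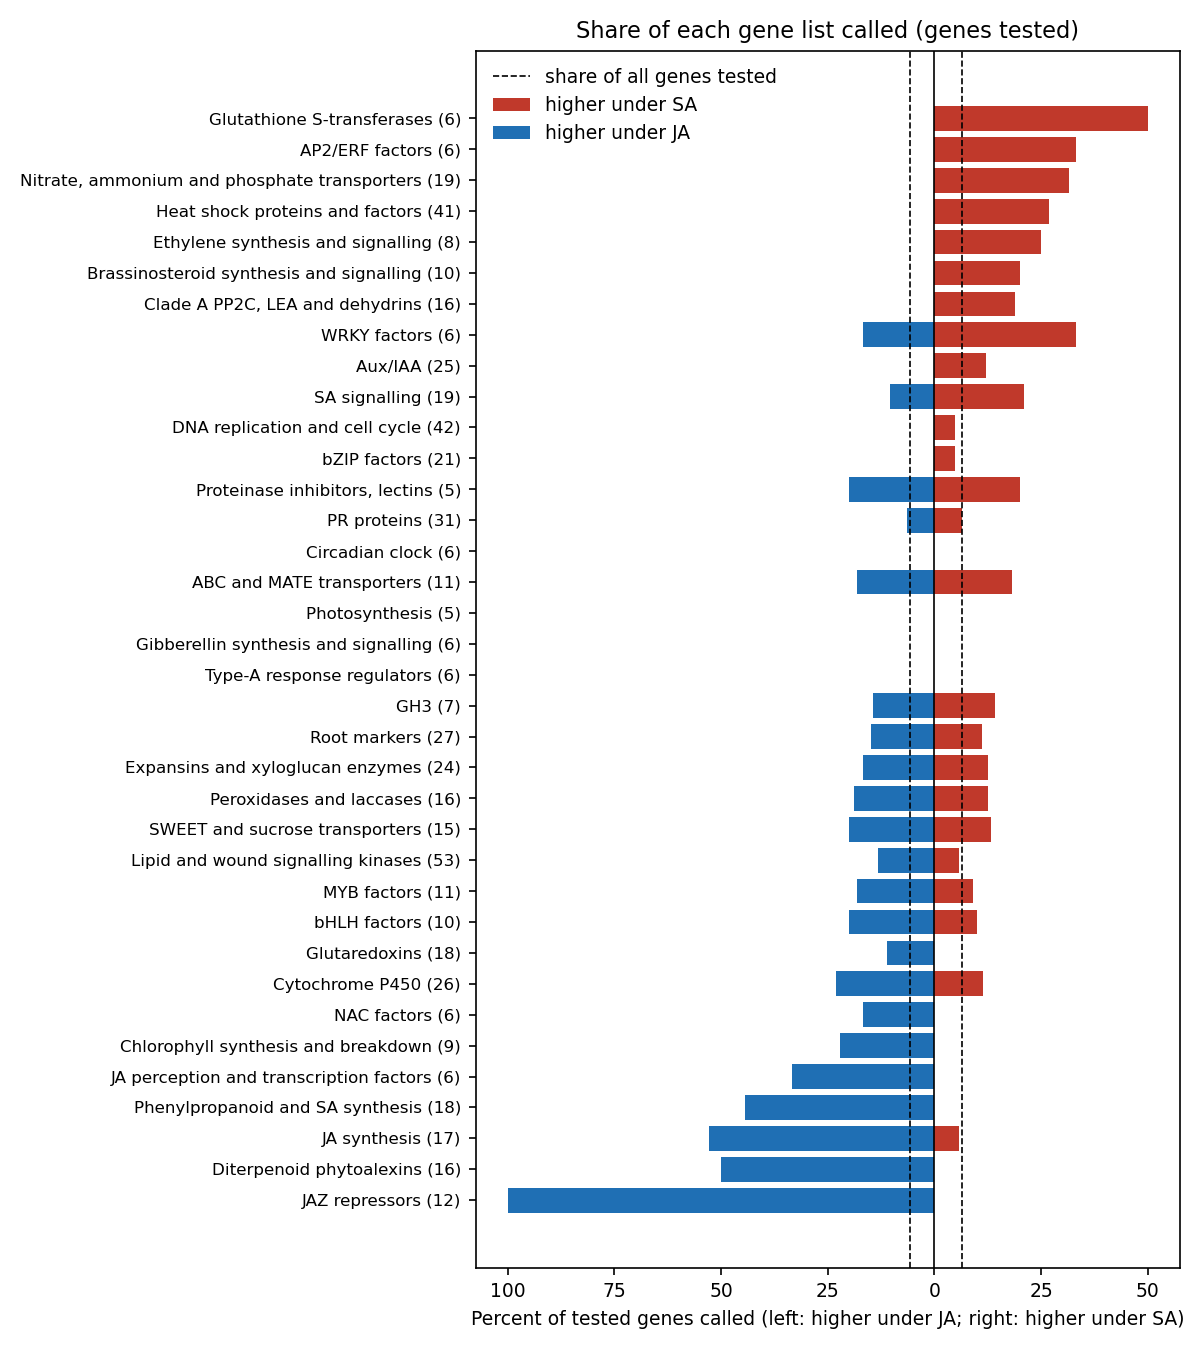
For each gene list with at least 5 genes tested (number in brackets), bars show the percent of its genes called higher under JA (to the left) and higher under SA (to the right). The dashed lines mark the shares over all genes tested, 5.66% and 6.47%; the JAZ repressors reached 100% on the JA side and the glutathione S-transferases 50% on the SA side.

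The JAZ genes had the highest share of calls among the lists of at least 5 genes. All 12 tested were higher under JA and 0 higher under SA, with a median of -1.89. SA and JA arrays did not overlap for these 12, which was so of all 2571 called probe sets and of 1317 of the 2186 named genes tested. The other member on the array, JAZ2, had values of at most 3.04 on every array and was not tested. JAZ5 (LOC4335698) had values of 4.56 and 3.56 under SA and 9.20 and 9.92 under JA, against 3.78 and 3.16 in control2. Its difference of -5.49 ± 0.39 (adjusted p = 6.73e-06) was the largest among named genes higher under JA. JAZ13 (LOC4348531) measured 7.67 and 7.13 under SA and 11.14 and 11.02 under JA, a difference of -3.69 ± 0.37 (adjusted p = 8.98e-05). For both, the SA arrays lay beside those of control2. JAZ8 differed by -2.62 ± 0.28, JAZ9 by -2.05 ± 0.42, JAZ11 by -1.97 ± 0.39, JAZ10 by -1.95 ± 0.39 and JAZ6 by -1.82 ± 0.20. JAZ12 differed by -1.71 ± 0.29, JAZ7 by -1.70 ± 0.14 and JAZ1 by -1.37 ± 0.15, and the smallest differences were those of JAZ3 (-0.85 ± 0.16) and JAZ4 (-0.79 ± 0.15). A dimmer probe set of JAZ4 was not called (-0.66, adjusted p = 0.0942).

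Against control2, 10 of the 12 JAZ genes stood at least 1 log2 unit higher under JA, with a median of 1.83, while SA ranged from -0.57 to 0.88 with a median of -0.18. This count holds for control2 alone. The JAZ1 mean was 14.38 in control1 and 14.69 under JA, while that of JAZ5 was 5.25 in control1 and 9.56 under JA. The calls of JAZ9, JAZ10 and JAZ11 were lost without SA replicate 2 (adjusted p = 0.0746, 0.0588 and 0.0627), and that of JAZ9 also without JA replicate 2 (0.0574). In each of these 3 genes SA replicate 2 was the lower of the SA arrays.

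Of 17 genes tested in the JA synthesis list, which was matched by name, 9 were higher under JA and 1 was higher under SA, with a median of -0.87. The 9 include DAD1, whose place in JA synthesis was not checked. The 2 others on the array, OPR4 and OPR12, stayed below 5 on all 16 arrays. Lipoxygenases, a family that includes the enzymes opening the pathway, were higher under JA in 3 of 5 cases. They were listed by name, and which of them act in JA synthesis was not determined. LOX3 (LOC4333818) measured 7.84 and 7.30 under SA, 10.27 and 10.06 under JA, and 10.21 and 9.28 in control2. The difference of -2.59 ± 0.36 (adjusted p = 0.000742) therefore went with an SA level below control2, the JA arrays lying close to control2. The control1 mean of LOX3 was 8.45, between the hormones. LOX2 differed by -0.97 ± 0.20 and LOX5 by -0.71 ± 0.18, while LOX8 (-1.08, adjusted p = 0.0928) and LOX9 (-0.21, adjusted p = 0.771) were not called. The largest lipoxygenase difference was that of LOX1.1 (LOC4334049). This gene lay outside the list, was taken in by the rule on size, and was not shown here to act in JA synthesis. It measured 9.65 and 7.63 under SA and 12.88 and 12.63 under JA, a difference of -4.11 ± 0.60 (adjusted p = 0.00108).

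Allene oxide synthase makes the first compound particular to the pathway, and 2 of the 4 genes listed under its name were higher under JA. Which of these 4 act in JA synthesis was not determined. AOS1 (LOC4334233) measured 7.42 and 7.17 under SA and 9.95 and 10.16 under JA, against 8.09 and 6.96 in control2, so JA alone stood apart (-2.76 ± 0.40, adjusted p = 0.00103). AOS4 (LOC4328743) measured 9.53 and 10.76 under SA and 12.57 and 12.44 under JA (-2.36 ± 0.41, adjusted p = 0.00337). With control2 at 12.03 and 11.39, SA alone stood apart from control2. The control1 mean was 10.48, close to SA, so which hormone moved depends on the control set. AOS2 (-0.95, adjusted p = 0.191) and AOS3 (-0.48, adjusted p = 0.501) were not called. AOC, the allene oxide cyclase, measured 11.90 and 12.02 under SA and 13.18 and 13.29 under JA (-1.27 ± 0.15, adjusted p = 0.000228). Its control2 values of 12.61 and 12.50 lay between the hormones.

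The OPR reductases split. OPR13 (LOC4345762), whose synonyms include OsOPR7, the OPR known to act in rice JA synthesis, was higher under JA by -0.87 ± 0.16 (adjusted p = 0.00483). OPR1 (LOC4340490), of the class of OPR enzymes not known to make JA, was the list's 1 gene higher under SA. It measured 14.14 and 13.67 under SA, 11.76 and 12.02 under JA, and 10.71 and 10.95 in control2 (2.02 ± 0.21, adjusted p = 0.000105), so both hormones stood above control2 and SA further. OPR-1 (LOC4340485) had the same order, with 14.76 and 14.08 under SA and 13.47 and 13.48 under JA, and was not called (0.94, adjusted p = 0.0729). OPR7 (LOC4329684; 0.42, adjusted p = 0.282) and OPR10 (-0.52, adjusted p = 0.205) were not called either. GH3.5, also named JAR1, which joins JA to isoleucine, measured 10.75 and 10.78 under SA and 11.66 and 11.67 under JA (-0.90 ± 0.13, adjusted p = 0.000877). DAD1 (LOC4335701), 1 of the 9 genes called higher under JA, entered the list by its name alone and differed by -0.46 ± 0.12. Whether it encodes a lipase of JA synthesis was not checked.

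JA synthesis genes called higher under JA numbered 6 without SA replicate 2 and 6 without JA replicate 2, and without SA replicate 2 those higher under SA numbered 2. LOX2 lost its call without either (adjusted p = 0.0686 and 0.0899), as did LOX5 (0.174 and 0.112) and DAD1 (0.112 and 0.278). LOX5 also lost it without JA replicate 1 (0.079) and DAD1 without SA replicate 1 (0.132). The difference of DAD1 was -0.27 without JA replicate 2.

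**Figure D3:**
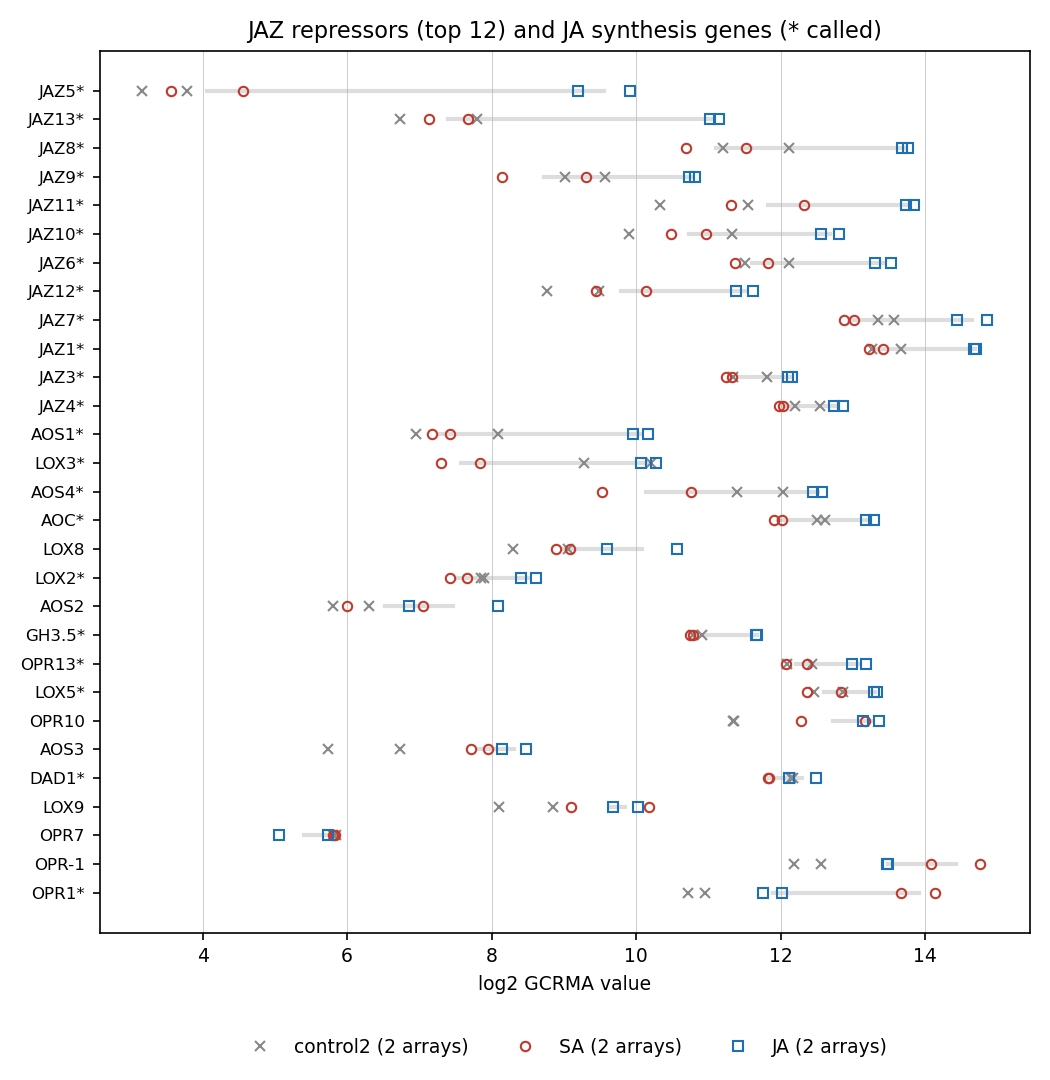
Log2 GCRMA values of the 12 JAZ repressors tested (top) and the 17 JA synthesis genes (below), with 2 SA arrays as red circles, 2 JA arrays as blue squares and 2 control2 arrays as grey crosses; grey bars join the SA and JA means, and an asterisk marks a called gene. In JAZ5 and JAZ13 the SA circles lie beside the control2 crosses, in LOX3 and AOS4 they lie below them, and in OPR1 both hormones lie above control2.

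Of the genes that act between JA and its targets, 2 of 6 were called, both higher under JA. JAMYB (LOC4351131), a MYB factor named for its response to JA, measured 9.44 and 9.52 under SA and 11.38 and 11.75 under JA, against 8.87 and 8.66 in control2 (-2.08 ± 0.20, adjusted p = 6.74e-05). BHLH148 (LOC4334060), a bHLH factor known to bind JAZ proteins in rice, measured 8.36 and 8.29 under SA and 9.80 and 9.46 under JA (-1.30 ± 0.23, adjusted p = 0.00366). The receptor genes COI1A (0.17, 95% interval -0.12 to 0.45), COI1B (0.31, 0.05 to 0.57) and COI2 (0.01, -0.31 to 0.32) were not called, nor was the co-repressor adaptor NINJA1 (-0.01, -0.26 to 0.25). Their adjusted p ranged from 0.133 for COI1B to 0.988 for COI2. Genes of JA breakdown could not be described, since no gene annotated here matched that list.

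Of 19 genes of SA signalling tested, 4 (21.1%) were higher under SA and 2 (10.5%) higher under JA, with a median of 0.20, and 13 were not called. The share toward JA lay near that of all named genes, 8.69%. Among 6 NPR1 homologues, NH1 (LOC4327315), the rice homologue closest to Arabidopsis NPR1, was higher under JA. It measured 9.74 and 9.43 under SA and 11.37 and 11.54 under JA, against 9.55 and 9.0 in control2 (-1.87 ± 0.25, adjusted p = 0.000635). Its SA arrays therefore lay beside control2 and its JA arrays above it. NH2 (LOC4325503) went the other way, with 13.17 and 12.86 under SA, 12.22 and 12.07 under JA, and 12.08 and 12.23 in control2 (0.86 ± 0.12, adjusted p = 0.000629). Both calls held without each of the 4 arrays in turn. NH3 (-0.30, adjusted p = 0.593), NH5 (-0.26, 0.493), NPR5 (-0.39, 0.382) and OsNPR4 (0.18, 0.701) were not called. A dimmer probe set of NH3, with means of 4.65 under SA and 5.84 under JA, was called higher under JA (-1.18, adjusted p = 0.0474).

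TGA factors bind the NPR1 proteins at promoters, and 1 of 10 was called. TGAL7 (LOC4346610) measured 8.57 and 8.25 under SA and 7.37 and 7.30 under JA (1.07 ± 0.25, adjusted p = 0.0167), with control2 at 8.28 and 7.67. The other 9 had differences between 0.01 and 0.72, all above 0, with adjusted p from 0.0949 for TGA2.1 to 0.987 for TGAL8. Those between were TGAL1 (0.72), TGAL4 (0.61), TGAL6 (0.37), TGAL11 (0.27), TGA2.3 (0.20), TGA2.2 (0.19) and TGAL5 (0.10).

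The WRKY genes of the list also split. OsWRKY76 (LOC4347069), known in rice as a repressor of defence, measured 11.27 and 11.23 under SA and 8.66 and 9.27 under JA, against 8.49 and 8.45 in control2 (2.28 ± 0.66, adjusted p = 0.0459). OsWRKY62 (LOC4347070), its relative, measured 9.76 and 9.16 under SA, 8.09 and 8.49 under JA, and 7.47 and 7.44 in control2 (1.18 ± 0.33, adjusted p = 0.0397). OsWRKY71 (LOC4328512) had its higher values under JA, 11.74 and 12.41 against 10.79 and 10.52 under SA (-1.42 ± 0.24, adjusted p = 0.00288). The 3 other WRKY genes of the wider WRKY list, WRKY51 (0.07), OsWRKY24 (-0.13) and WRKY9 (-0.29), were not called, the first 2 named after their values were seen.

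The call of OsWRKY76 was lost without each array in turn (adjusted p = 0.129 to 0.18), although its SA and JA values did not overlap. OsWRKY62 lost its call without SA replicate 1 (0.278), JA replicate 1 (0.155) and JA replicate 2 (0.096), and TGAL7 without the same 3 arrays (0.136, 0.0525 and 0.11). Members called higher under SA therefore numbered 1 without SA replicate 1, JA replicate 1 or JA replicate 2, and 4 without SA replicate 2.

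**Figure D4:**
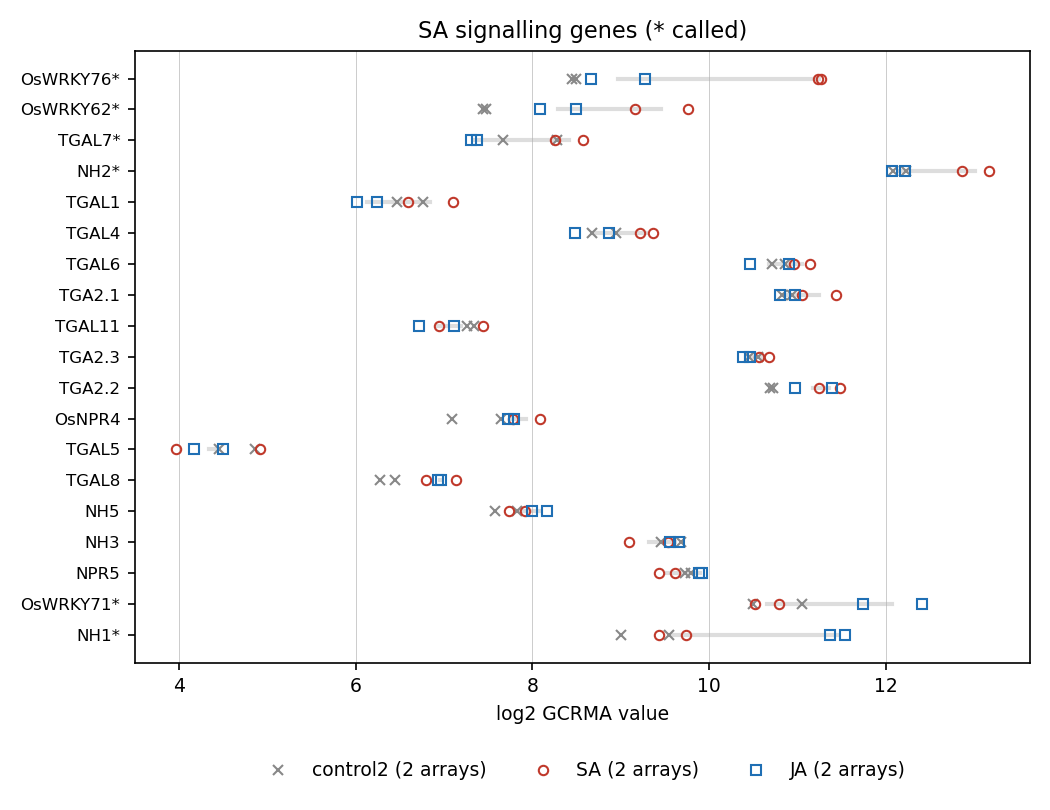
Log2 GCRMA values of the 19 SA signalling genes tested, ordered by SA minus JA difference, with 2 SA arrays (red circles), 2 JA arrays (blue squares) and 2 control2 arrays (grey crosses); an asterisk marks a called gene. OsWRKY76 at the top has both SA arrays above 11, and NH1 at the bottom has both JA arrays above 11.

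Genes of the diterpenoid phytoalexin list were higher under JA in 8 of 16 cases and higher under SA in 0, with a median of -1.43. The list also holds CPS1 and ks1, which act in gibberellin synthesis, and without them 7 of 14 were higher under JA, with a median of -1.43. The SA and JA arrays did not overlap in any of the 16, and the lower values were those under SA. Among all genes tested, 8491 of 14941 did not overlap, and among those with a name 1317 of 2186. Of the 16, CYP76M5 passed the low-value filter only through the JA arrays, where it was high, and without it as well 6 of 13 were higher under JA. Of the 4 others on the array, KSL5, CYP76M6 and CYP76M7 were not tested, nor was KSL10, which measured 2.67 and 2.71 under SA and 5.35 and 3.12 under JA. Among the cyclases, CPS4 (LOC4335090), which makes the precursor of momilactones, measured 8.11 and 8.58 under SA and 11.35 and 10.63 under JA, against 8.68 and 8.14 in control2 (-2.65 ± 0.47, adjusted p = 0.00368). KSL4, the next enzyme of that branch, measured 7.18 and 8.12 under SA and 10.09 and 9.86 under JA, with control2 at 7.00 and 7.16 (-2.33 ± 0.62, adjusted p = 0.0327). CPS2, of the phytocassane branch, measured 8.97 and 10.03 under SA and 11.39 and 11.13 under JA, with control2 at 10.64 and 10.55 (-1.76 ± 0.47, adjusted p = 0.0321). CPS1 differed by -1.60 ± 0.38 (adjusted p = 0.0194).

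Among the P450 oxidases of these branches, CYP99A2 differed by -2.05 ± 0.46 (adjusted p = 0.0137) and CYP99A3 by -1.72 ± 0.39 (adjusted p = 0.0152), and CYP701A8 by -1.55 ± 0.37 (adjusted p = 0.0202). CYP76M5 measured 3.54 and 3.87 under SA and 6.26 and 6.09 under JA (-2.47 ± 0.36, adjusted p = 0.00104). KSL7 (-0.59, adjusted p = 0.318) and CYP71Z7 (-1.30, adjusted p = 0.0618) were not called. Against control2 the list stood higher under JA, with a median of 0.72 and 5 of 16 genes at least 1 log2 unit above, while under SA the median was -0.20 with 3 genes that far below. Calls numbered 2 without SA replicate 1, 3 without JA replicate 1 and 4 without JA replicate 2. The call of CPS4 held without each array, while CYP99A2 lost its call without SA replicate 1 (0.135) and JA replicate 1 (0.0806). CYP99A3 lost it without those (0.0903 and 0.0826) and without SA replicate 2 (0.0596). KSL4, CPS1, ks1, CPS2, CYP701A8, KSL7 and CYP71Z7 were named after their values were seen.

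Phenylpropanoid genes lead to lignin, flavonoids and one route to SA itself, and 8 of 18 were higher under JA against 0 higher under SA (median -0.43). 4CL5 (LOC4345717), a 4-coumarate:CoA ligase, measured 9.69 and 9.80 under SA and 11.42 and 11.69 under JA, with control2 at 10.30 and 9.89 (-1.81 ± 0.20, adjusted p = 0.00015). The cinnamyl alcohol dehydrogenase CAD6 differed by -1.49 ± 0.29, CAD by -0.60 ± 0.11, and the O-methyltransferase ROMT-15 by -0.59 ± 0.10. Of the genes at the entry to the pathway, PAL06 (LOC4330040) measured 11.03 on both SA arrays and 12.18 and 12.59 under JA, against a control2 mean of 11.90 (-1.35 ± 0.27, adjusted p = 0.00754). The brightest probe set of PAL (LOC4330034) was not called (-0.07, adjusted p = 0.878), nor were 3 others, while its dimmest probe set was higher under JA (-0.73, adjusted p = 0.00854). OsICS, isochorismate synthase, which starts the other route to SA, measured 9.97 and 10.14 under SA and 9.98 and 10.45 under JA (-0.16, 95% interval -0.73 to 0.42, adjusted p = 0.774).

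CCR1 and CAD7, also on the array, stayed below 5 and were not tested. The other called members of that list were 4CL2 (-1.39), 4CL3 (-0.89) and 4CL (-0.75). Calls numbered 3 without SA replicate 1 and 4 without JA replicate 2. CAD lost its call without SA replicate 1 (adjusted p = 0.0558) and CAD6 without SA replicate 2 (0.0587). PAL06, PAL, OsICS, 4CL2, 4CL3 and 4CL were named after their values were seen.

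The largest differences toward SA among named genes were those of heat shock genes. Of 41 tested, 11 were higher under SA and 0 higher under JA, with a median of 0.49. HSP26.7 and HSP23.2 passed the low-value filter through the SA arrays alone, and of the other 39 genes 9 were higher under SA, with a median of 0.45. The 4 members not tested, HSP16.6, HSP17.8, SPL7 and HSP21.9, stayed below 5 on all arrays. HSP18.1 (LOC4332361), a small heat shock protein, which keeps unfolded proteins from clumping, measured 13.47 and 13.57 under SA and 8.03 and 8.37 under JA, against 6.68 and 7.77 in control2. Its difference of 5.32 ± 0.47 (adjusted p = 3.41e-05) was the largest of any named gene toward SA, and its other probe set gave 5.08 ± 0.64. HSP17.4 (LOC4332360) measured 11.93 and 11.73 under SA and 7.49 and 8.16 under JA (4.0 ± 0.41, adjusted p = 9.67e-05). In HSP17.4 the JA arrays lay within the control2 range of 7.00 to 8.43, in HSP18.1 they lay above both control2 arrays, and in both genes SA was far higher.

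Further small heat shock proteins higher under SA were hsp17.9 (2.61 ± 0.43), HSP18.6 (2.64 ± 0.41) and HSP17.7 (1.76 ± 0.16). HSP26.7 measured 5.26 and 8.12 under SA and 2.53 and 2.54 under JA, and HSP23.2 measured 5.76 and 7.22 against 2.68 and 2.62. The differences were 4.16 ± 0.61 and 3.84 ± 0.40, and in both JA and control2 lay near the bottom of the scale. The difference of HSP26.7 was 2.73 without SA replicate 2, and its call was lost with the 4 SA and JA arrays alone. In all, 7 of 16 small heat shock proteins were called, with a median of 1.67, and 5 of 14 without these 2 genes, with a median of 1.23. HSP24.1 measured 13.66 and 13.08 under SA and 11.45 and 10.84 under JA and was not called (2.22 ± 0.68, adjusted p = 0.059). HSP18.0 disagreed between its probe sets: the brighter gave 0.10 (adjusted p = 0.732) and the dimmer 3.49 ± 0.43 (adjusted p = 0.000379), so its call is uncertain.

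CLPB1 (LOC4339343), a chaperone that pulls protein clumps apart, measured 8.51 and 8.82 under SA and 6.22 on both JA arrays, against 6.12 and 6.70 in control2 (2.44 ± 0.22, adjusted p = 4.56e-05). Among 20 heat shock factors, the transcription factors of the group, 3 were higher under SA, with a median of 0.27. HSF11 (LOC4334080), also named HSFA2A, measured 6.57 and 5.86 under SA and 2.22 and 2.24 under JA (3.98 ± 0.84, adjusted p = 0.0105). HSF07 (LOC4329526), also named HSFA3, differed by 1.28 ± 0.25 and HSF01 (LOC4326351), also named HSFA6B, by 1.28 ± 0.36 (adjusted p = 0.00686 and 0.0441). The call of HSF11 was lost without SA replicate 1 (0.0856) and without JA replicate 2 (0.0717). Neither of the 2 HSP90-class genes was called, HSP82 differing by 0.45 (adjusted p = 0.187). Over the alternatives that leave out 1 array, 8 to 13 members were called higher under SA, and HSP18.8 was called higher under JA without SA replicate 2. HSP17.9B (-0.31, adjusted p = 0.0521) was called higher under JA in 4 other alternatives, among them the arrays centred on their medians. HSF07, HSF01, HSP24.1, HSP18.8, HSP17.9B and HSP82 were named after their values were seen.

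**Figure D5:**
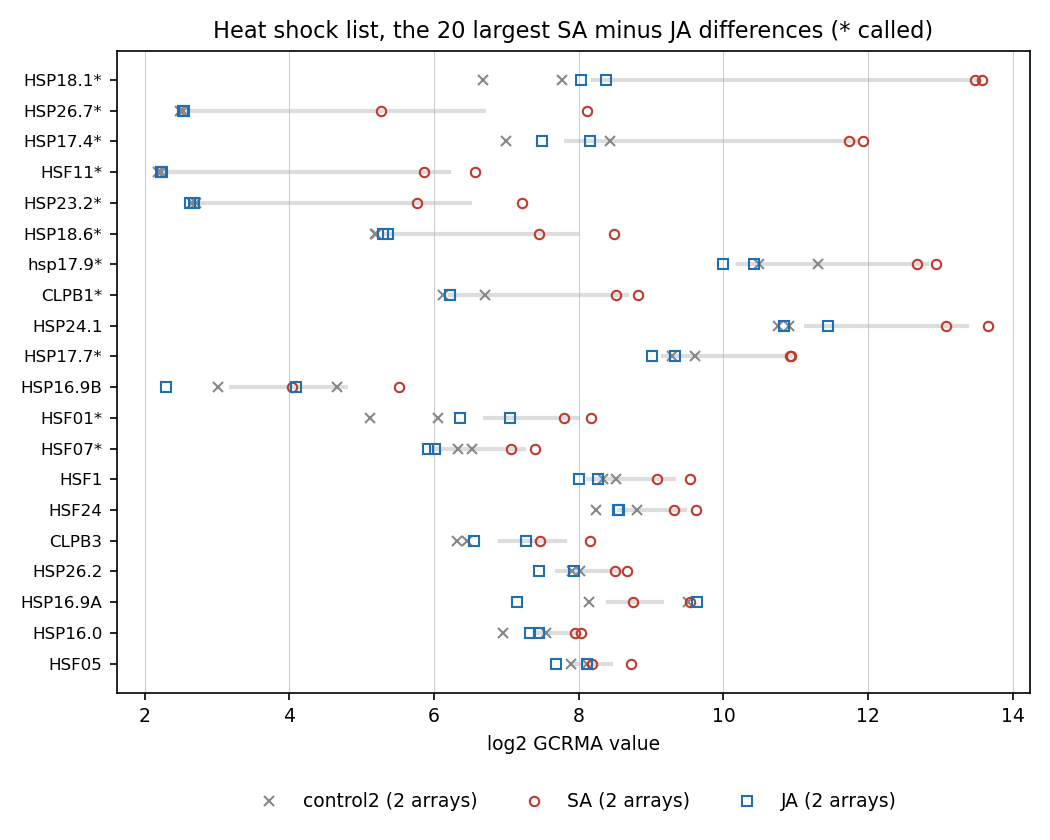
Log2 GCRMA values of the 20 heat shock genes with the largest SA minus JA differences out of 41 tested, with 2 SA arrays (red circles), 2 JA arrays (blue squares) and 2 control2 arrays (grey crosses); an asterisk marks a called gene. In HSP17.4, HSP18.6 and CLPB1 the JA squares lie at or near the control2 crosses and the SA circles to their right.

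Other genes taken in by the rule on size were also higher under SA. SAP17 (LOC4346945), a stress-associated zinc finger protein, measured 9.78 and 8.89 under SA and 6.06 and 6.43 under JA, with control2 at 6.94 and 7.08 (3.09 ± 0.37, adjusted p = 0.00027). DREB1A (LOC4347620), a cold-response factor, measured 7.43 and 4.69 under SA and 2.90 and 2.29 under JA (3.46 ± 0.76, adjusted p = 0.0127). Its call was lost without SA replicate 1 (adjusted p = 0.105, difference 2.09) and without JA replicate 2 (0.11). LPR1 (LOC4326010), named for a root response to low phosphate, measured 10.55 and 9.39 under SA and 7.03 and 7.25 under JA (2.83 ± 0.38, adjusted p = 0.00058). CDKE-1 disagreed between probe sets, with 2.45 ± 0.42 on the dimmer and 0.13 (adjusted p = 0.625) on the brighter.

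The sugar exporters of the SWEET family went in both directions. OsSWEET14 (LOC4350572), known as a target of bacterial blight effectors, measured 11.77 and 11.17 under SA and 8.72 and 9.26 under JA, with control2 at 9.52 and 9.44 (2.47 ± 0.25, adjusted p = 9.38e-05). Its second probe set gave 2.56 ± 0.33. OsSWEET2b (LOC4326923) measured 5.39 and 5.37 under SA, 7.91 and 8.14 under JA, and 7.03 and 6.75 in control2 (-2.64 ± 0.36, adjusted p = 0.000701). The hormones thus stood on opposite sides of control2 there. In the list as a whole, with sucrose transporters, 2 of 15 (13.3%) were higher under SA and 3 (20%) higher under JA, against 7.5% and 8.69% of all named genes. The call of OsSWEET2a (-0.66) was lost without each of the 4 arrays (adjusted p = 0.0789 to 0.233). That of OsSWEET11 (-0.63) was lost without SA replicate 1 (0.308), JA replicate 1 (0.0681) and JA replicate 2 (0.251).

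Glutathione S-transferases, which attach glutathione to toxic compounds, were higher under SA in 3 of 6 cases and higher under JA in 0 (median 0.32). GST1 (LOC4334347) measured 13.82 and 13.85 under SA, 12.01 and 12.52 under JA, and 10.05 on both control2 arrays (1.57 ± 0.27, adjusted p = 0.00295). Both hormones therefore stood above control2, SA further than JA. GSTU6 measured 14.95 and 14.01 under SA and 13.11 and 12.75 under JA (1.55 ± 0.33, adjusted p = 0.0101), and GSTZ5 differed by 0.74 ± 0.16 (adjusted p = 0.0122). GSTU6 lost its call without SA replicate 1 (0.106) and JA replicate 2 (0.101), and GSTZ5 without SA replicate 1 (0.112) and JA replicate 1 (0.0661). GSTF1 had its higher values under JA and was not called (-0.62, adjusted p = 0.0767). Calls numbered 1 without SA replicate 1, and GSTF1 was called higher under JA without JA replicate 1.

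Nitrate, ammonium and phosphate genes were higher under SA in 6 of 19 cases and higher under JA in 0 (median 0.51). The phosphate transporter OsPht1;8 (LOC4348741) measured 12.80 and 13.14 under SA and 11.60 and 11.54 under JA, with control2 at 11.43 and 11.30 (1.40 ± 0.19, adjusted p = 0.000646). Of the SPX proteins, which sense phosphate status, OsSPX5 differed by 1.70 ± 0.42, OsSPX2 by 1.48 ± 0.35 and OsSPX1 by 0.98 ± 0.24. The nitrate transporter NRT2.3 lay below control2 under both hormones, with 6.50 and 7.94 under SA, 5.80 and 5.70 under JA, and 8.23 and 8.78 in control2 (1.47 ± 0.39, adjusted p = 0.0316). The sixth call was the ammonium transporter AMT2-2 (1.04), named after its value was seen. Of these, OsPht1;8 held its call without each array. The others depended on single arrays, NRT2.3 differing by 0.75 without SA replicate 2 (adjusted p = 0.21), and calls numbered 2, 4, 2 and 1 without SA replicate 1, SA replicate 2, JA replicate 1 and JA replicate 2.

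In the lists of auxin, abscisic acid, ethylene and brassinosteroid genes, all calls were toward SA save that of GH3.5, given above. CPS1, of gibberellin synthesis, was higher under JA (-1.60), as given with the diterpenoid cyclases. Of 25 Aux/IAA repressors of auxin signalling, 3 (12%) were higher under SA and 0 higher under JA, against 7.5% and 8.69% of all named genes. They were led by IAA25 (9.55 and 9.78 under SA, 8.50 and 8.25 under JA, 1.29 ± 0.16, adjusted p = 0.000427). GH3.2, which joins auxin to amino acids, measured 12.73 and 11.79 under SA and 10.60 and 10.17 under JA (1.87 ± 0.30, adjusted p = 0.00219). The dehydrin Dhn1 measured 12.29 and 12.32 under SA and 11.03 and 11.12 under JA, with control2 at 11.88 and 11.86 (1.23 ± 0.13, adjusted p = 0.000152). It was 1 of 3 called among 16 PP2C, LEA and dehydrin genes of the abscisic acid response, all 3 higher under SA (18.8%). The others were OsPP2C09 (1.09) and OsPP2C06 (0.92). With 1 array left out, their differences ran from 0.76 to 1.41 and from 0.57 to 1.27. Of the ABA 8'-hydroxylases, which break abscisic acid down, ABA8OX2 differed by 1.08 ± 0.26 and ABA8OX1 by 0.89 ± 0.20. Both lost their calls without SA replicate 1 (0.176 and 0.144) and JA replicate 1 (0.095 and 0.0854), and ABA8OX2, which differed by 0.61 without SA replicate 1, also without JA replicate 2 (0.0699). BZR3, of the brassinosteroid pathway, differed by 0.96 ± 0.15 (adjusted p = 0.00198). The ethylene list had ERS2 (1.43) and ERS1 (0.43) called. With the 4 SA and JA arrays alone, the calls of OsPP2C09, OsPP2C06, ERS2, ERS1, BZR3 and the Aux/IAA genes IAA10 (0.65) and IAA1 (0.41) were lost. Those of IAA25, GH3.2 and Dhn1 held there.

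Type-A response regulators, the cytokinin response genes that dampen cytokinin signalling, had 0 of 6 genes called by limma in either direction, with 1 unadjusted p under 0.05, that of OsRR2. Both hormones stood at least 1 log2 unit below control2 in 5 of the 6. OsRR6 (LOC4337372) measured 9.90 and 10.26 under SA, 10.25 and 9.98 under JA, and 11.13 and 11.25 in control2, and its 95% interval for SA minus JA ran from -0.39 to 0.33. OsRR4 measured 7.59 and 8.74 under SA, 8.72 and 8.50 under JA, and 10.13 and 10.55 in control2 (interval -1.09 to 0.20). OsRR9 (-1.73 to 0.76), OsRR1 (-0.92 to 0.45) and OsRR2 (-1.48 to -0.03) had intervals as wide or wider. OsRR5 lay between 2.07 and 2.11 on these arrays. OsRR6 and OsRR5 were named after their values were seen.

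The rule on size also took in genes higher under JA that lie outside the lists above. ADC2 (LOC4334917), arginine decarboxylase, the entry to polyamine synthesis, measured 10.01 and 8.24 under SA, 12.04 and 12.26 under JA, and 8.43 and 7.28 in control2 (-3.02 ± 0.48, adjusted p = 0.0021). ILL6 (LOC4341907), whose Arabidopsis namesake cleaves hormone conjugates, measured 6.46 and 6.43 under SA and 9.18 and 9.58 under JA (-2.94 ± 0.44, adjusted p = 0.0014). The transporter gene ABCG45 measured 4.03 and 4.21 under SA and 7.06 and 7.14 under JA (-2.98 ± 0.59, adjusted p = 0.00738), and lost its call without SA replicate 1 (0.0562) and JA replicate 2 (0.0587). CRSH2, a calcium-dependent enzyme that makes the signal nucleotide ppGpp in chloroplasts, differed by -2.60 ± 0.58 (adjusted p = 0.014). Its call was lost without SA replicate 1 (0.0665), SA replicate 2 (0.0723) and JA replicate 2 (0.134).

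For DUR3 (LOC4349520), a urea transporter, the difference lay on the SA side. It measured 4.14 and 4.37 under SA, 6.52 and 7.24 under JA, and 7.54 and 7.43 in control2 (-2.62 ± 0.32, adjusted p = 0.000302). The peroxidase PRX112 (LOC4344279) had the same order, with 7.79 and 8.06 under SA, 10.54 and 10.17 under JA, and 10.61 and 10.67 in control2 (-2.43 ± 0.32, adjusted p = 0.000508). CYP714C1 disagreed between probe sets, with -2.64 ± 0.30 on the dimmer and -0.33 (adjusted p = 0.586) on the brighter. The dimmer passed the low-value filter only through the JA arrays, where it was high.

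SGR (LOC4347672), the stay-green gene that starts chlorophyll breakdown, measured 10.76 and 10.58 under SA, 11.96 and 12.41 under JA, and 10.13 on both control2 arrays (-1.52 ± 0.18, adjusted p = 0.000254). The other call among 9 chlorophyll genes was PORA, of chlorophyll synthesis, with 10.53 and 10.99 under SA and 11.53 and 11.84 under JA (-0.93 ± 0.25, adjusted p = 0.0362). PORA lost its call without SA replicate 1 (0.26), JA replicate 1 (0.0553) and JA replicate 2 (0.25).

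Of the 24 expansins and xyloglucan enzymes, which loosen cell walls, 3 (12.5%) were higher under SA and 4 (16.7%) higher under JA. All named genes had shares of 7.5% and 8.69%. OsXTH8 measured 13.06 and 13.14 under SA and 14.02 and 14.21 under JA, with control2 at 13.76 and 13.75 (-1.01 ± 0.10, adjusted p = 8.98e-05). EXPB11 (-1.64 ± 0.23) and EXP2 (-1.24 ± 0.19) had JA values near control2 and SA values below it. EXP6 was higher under SA (0.87 ± 0.14, adjusted p = 0.00175).

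Among 53 kinases of the MAPK, CPK and CIPK families, 3 (5.66%) were higher under SA and 7 (13.2%) higher under JA. The shares of all named genes were 7.5% and 8.69%. Both loci listed as MAPK6 were higher under JA, LOC4339633 by -1.48 ± 0.21 (adjusted p = 0.000957) and LOC4340170 by -0.73 ± 0.10 (adjusted p = 0.000579). CIPK16 was higher under SA, with 7.07 and 6.68 against 4.86 and 4.32 (2.29 ± 0.38, adjusted p = 0.00264).

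Several other lists stayed near the background. Of 31 genes in the list made for PR proteins, 2 (6.45%) were higher under SA and 2 (6.45%) higher under JA. The list was matched by name alone, and its GLU and OsTLP members were not checked to encode PR proteins. Its counts therefore describe the list and not PR proteins as a class. The calls toward SA were Pir7b (LOC4326788, 1.86 ± 0.43) and OsTLP3 (LOC4325075, 0.73 ± 0.12). Those toward JA were GLU2 (-0.80 ± 0.16) and GLU11 (-0.69 ± 0.15). Pir7b lost its call without SA replicate 1 (adjusted p = 0.155) and JA replicate 1 (0.102), GLU2 without SA replicate 1 (0.0751) and JA replicate 2 (0.0758), and GLU11 without those (0.0803 and 0.0965) and SA replicate 2 (0.0583). Of 21 bZIP factors 1 (4.76%) was called and of 42 genes of DNA replication and the cell cycle 2 (4.76%), all toward SA. limma called 0 of 6 circadian clock genes, with 0 at an unadjusted p under 0.05, and 0 of the 6 genes of the gibberellin list, with 1 such p. That list does not hold CPS1, given above with the diterpenoid cyclases.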

How the data were processed

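Total RNA from seedlings was labelled with biotin and hybridized to Affymetrix rice arrays, per the labels' protocols. The deposited values are 1 log2 value per probe set and array, made by the authors with GCRMA, per the submitters' processing notes. The sources used here give neither its version nor the log base, and log2 was inferred from the range of the values. Folds at low values depend on how GCRMA corrected the background. Precision is limited by the number of arrays.

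Of 57381 probe sets, 123 spike-in and 64 reporter ones were left out, and 24100 had log2 values above 5 on at least 2 of 16 arrays. limma 3.58.1 in R 4.3.3 (lmFit, eBayes with an intensity trend) was fitted over 8 groups with 8 residual degrees of freedom, for the two-sided contrast of SA minus JA, with Benjamini-Hochberg adjustment. The fit was also run on data simulated with independent noise, which cannot show its error rates in the real data.

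Of the rice probe sets, 22436 had 1 gene, all 17905 of which matched RefSeq (assembly ASM3414082v1), and 2449 had a name. Most names were synonyms. A gene was read from its probe set with the highest mean over the 16 arrays. Named were the 15 largest differences each way of at least 1 log2 unit with arrays that did not overlap, every tested member of the JA and SA signalling lists, and up to 4 members of other lists by smallest p. Other genes are said to be named after their values were seen. The members and lists were chosen with earlier results of these data known. Lists of JA breakdown and of glucosyltransferases matched no gene. A planned search for promoter motifs was not run, because no sequence was used here. Alternatives were other scalings, filters, variance priors and array sets, array weights, a 2-fold minimum, the replicate block, and leaving out each array.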

Additional observations from a re-analysis of the deposited data

How the results depend on the processing

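The directions of the 121 called probe sets named by the rule did not reverse under any of the 16 alternative fits, and 55 were called in every fit that tested them. For most of these fits the lack of a reversal was fixed in advance. In all 2571 calls the SA and JA arrays did not overlap, so leaving out or weighting arrays could not change a sign. Other filters, variance priors and array sets leave the SA minus JA difference itself unchanged. Only the other scalings could have reversed a direction. Of 2571 calls (1339 higher under SA, 1232 higher under JA), 1248 (622 and 626) were made with the 4 SA and JA arrays alone. With both control sets as 1 group, 1366 (675 and 691) were made. At least 2-fold differences numbered 1194 (656 and 538). Leaving out 1 array gave 1069 to 2329 calls, 527 to 1211 higher under SA and 510 to 1118 higher under JA. The lowest counts came without JA replicate 2 (1069, 559 and 510) and SA replicate 1 (1151, 527 and 624), and without SA replicate 2 the calls toward JA were 740. Such fits have fewer arrays, and a lone array is assumed to vary like the other groups. The other scalings, filters, variance priors, array weights and subsets gave 1826 to 2613 calls. Deviations of same-numbered samples correlated at r = 0.107 between SA and JA, and over all pairs of groups from -0.185 (BAP and JA) to 0.446 (ACC and JA), with 0.308 for control2 and SA and 0.357 for control2 and ACC. The labels do not say that a number marks a shared batch. With the replicate block 2814 probe sets were called (1484 and 1330). List counts that moved by over 1.5 times in fits with all 4 arrays were those of the diterpenoid genes (4 with no filter), the nitrate, ammonium and phosphate genes (1 with no filter, 3 with the controls as 1 group, 2 without control1, IAA and BAP), the phenylpropanoid genes (5 with the controls as 1 group) and SA signalling toward SA (2 with no filter, array weights, the controls as 1 group, and without control1, IAA and BAP). Aux/IAA calls numbered 1 with the 4 arrays alone. Values under 5 on the log2 scale limit 151 calls toward SA and 80 toward JA, whose lower group lay there.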

Other observations

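Several of the largest differences lay in genes that carry no name. LOC4334817 measured 10.25 and 9.25 under SA and 3.43 and 3.00 under JA, with control2 at 3.91 (6.53 ± 0.40, adjusted p = 2.06e-06). LOC4326659 measured 11.85 and 10.71 under SA and 6.0 and 6.05 under JA (5.26 ± 0.83, adjusted p = 0.00189). Toward JA, LOC4350428 measured 2.93 and 2.98 under SA and 8.38 and 8.37 under JA, with control2 at 3.57 (-5.42 ± 0.26, adjusted p = 5.23e-07). LOC4337008 measured 3.84 and 2.26 under SA and 9.55 and 8.38 under JA, with control2 at 5.57 between them (-5.91 ± 1.00, adjusted p = 0.00288). Among the 47 called probe sets that differed by at least 4 log2 units, 23 had the higher hormone at least 4 above control2 and the lower hormone within 1 of it. In 1 other the higher hormone lay within 1 of control2 and the lower hormone at least 4 below it.

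The probe set with the largest difference of all has no gene assigned here. It measured 13.75 and 14.09 under SA and 2.60 and 2.64 under JA, a difference of 11.30 ± 2.39 (adjusted p = 0.0104), with control2 at 14.97. In ABA replicate 1 it was 3.03 and in ABA replicate 2 it was 14.46. On the other 10 arrays it lay between 13.7 and 16.13. These 5 probe sets were chosen after their values were seen.

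Among named genes, both hormones stood at least 1 log2 unit from control2 in the same direction and still differed from each other in several cases not given above. SAT1 (LOC4324655) measured 12.31 and 11.78 under SA and 10.07 and 10.35 under JA, with 9.20 on both control2 arrays (1.83 ± 0.23, adjusted p = 0.000445). BGLU31 (LOC4347545), of the beta-glucosidase family, measured 14.93 and 14.75 under SA and 13.20 and 13.55 under JA, with control2 at 12.17 (1.47 ± 0.22, adjusted p = 0.00116). The beta-expansin EXPB7 lay below control2 under both, with 9.50 and 10.34 under SA and 8.72 and 8.68 under JA against 11.64 (1.22 ± 0.28, adjusted p = 0.0147). These 3 were named after their values were seen.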
